A study of Rattus norvegicus with 6 samples.

Results

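The CCN family and a group of genes tied to the co-activator YAP and its DNA-binding partner TEAD were examined in NRCFs, the cardiac fibroblasts of newborn rats in primary culture. The 10 genes were chosen by symbol out of 21857 symbols in the count files. They were 5 CCN genes (Ctgf, Cyr61, Nov, Wisp1 and Wisp2, now also called Ccn2, Ccn1, Ccn3, Ccn4 and Ccn5), 3 target genes (Ankrd1, Amotl2 and Lats2), and Yap1 and Tead1. RNA-seq was performed on 3 libraries of the Vector group, which carry the genotype label WT and received an empty plasmid, and on 3 libraries labelled FTO overexpression, which received a plasmid with the rat coding sequence of FTO, a demethylase of the N6-methyladenosine mark. All cells came from healthy animals, Sprague-Dawley by the design text, while the strain label of each sample reads Noway. The transfection was transient, and nothing in the labels says whether replicates came from separate cultures, so p-values measure the spread between these libraries, which may be technical.

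CCN proteins are secreted into the matrix around cells, where they bind integrins, proteoglycans and growth factors and change how cells adhere, divide and lay down collagen. YAP and its relative TAZ carry signals of cell shape, matrix stiffness and cytoskeletal tension to the nucleus, where they work through TEAD proteins. The Hippo kinases MST and LATS phosphorylate YAP and hold it in the cytoplasm, so much of this control acts on the protein and is not read from mRNA. Ctgf and Cyr61 are among the best-known YAP/TEAD targets and also respond to TGF-β and to the serum response factor SRF. In the heart, activated fibroblasts are a main source of Ctgf.

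The libraries held 13178952 to 17857999 counted reads. Fto itself was at 88.3 ± 1.2 CPM (counts scaled to a common library size) in Vector and 92.3 ± 1.32 CPM in the libraries labelled FTO (SD, n = 3 each). Its log2 fold change of 0.06 (SE 0.0468) did not pass the edgeR quasi-likelihood test (adjusted p = 0.239), and the group is named by its label below. Log2 CPM correlated across genes at 0.992 to 0.994 within groups and at 0.873 to 0.880 between them. 

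Markers of other cells differed as well, and within most lists single markers went opposite ways. Levels are given for Vector first and then for the libraries labelled FTO, and each marker said to rise or fall had an adjusted p under 0.05 in the edgeR test. Of all 12941 genes tested 65.9% passed at that limit, 33.2% higher and 32.8% lower. The sum of 7 fibroblast markers was 3913 to 4087 and 8667 to 9018 CPM, but Dcn alone went from 47.0 ± 1.57 to 5611 ± 221 CPM, and the other 6 together were lower, at 3868 to 4039 and 3151 to 3219 CPM. Pdgfra, Lum and Thy1 rose with Dcn, while Vim fell from 3161 ± 104 to 1250 ± 72.8 CPM, and Tcf21 and Ddr2 fell too. All 7 had counts above the floor of 3 in every library. Sums of 7 cardiomyocyte markers were 1457 to 1487 and 2175 to 2213 CPM, with 6 higher and Tnnt2 lower. Sums of 7 macrophage markers were 344 to 367 and 84.4 to 104.9 CPM, with 6 lower, while Adgre1 rose from 6.81 ± 1.52 to 31.7 ± 3.64 CPM. Sums of 6 mural markers were 1190.4 to 1240.3 and 819 to 915 CPM, mostly Pdgfrb, and Notch3 and Cspg4 also fell, while Kcnj8 rose from 2.06 ± 0.369 to 60.8 ± 3.11 CPM and Abcc9 from 20.9 ± 0.642 to 114 ± 13.7 CPM. Sums of 7 endothelial markers were 24.5 to 25.0 and 53.4 to 55.9 CPM, and of 6 epicardial markers 49.4 to 54.9 and 188 to 205 CPM, the latter with Msln from 2.83 ± 0.678 to 87.1 ± 5.64 CPM and Upk3b lower. No listed marker was at or under 3 counts in every library, while C1qb and C1qc were at or under it in each library labelled FTO. Fewer cells of a type and less RNA per cell cannot be told apart in these bulk samples, and the part of cell mixture in the results below was not tested.

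The 10 genes were chosen with this comparison known, so their values are given as a description and no test is reported for them. The level of each is TMM-normalized CPM (TMM is the default scaling of edgeR), and differences are log2 fold changes of the libraries labelled FTO over Vector. Levels of different genes are not compared, since counts were not set against transcript length. The groups did not overlap in 8 of the 10 genes, against 70.3% of the 12941 genes tested. The fold change was at least 2 in 3 of the 10, against 19.6% of all genes that changed at least 2-fold with an adjusted p under 0.05. Both counts rest on the comparison that chose the genes, and nothing is read from them.

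**Figure D1:**
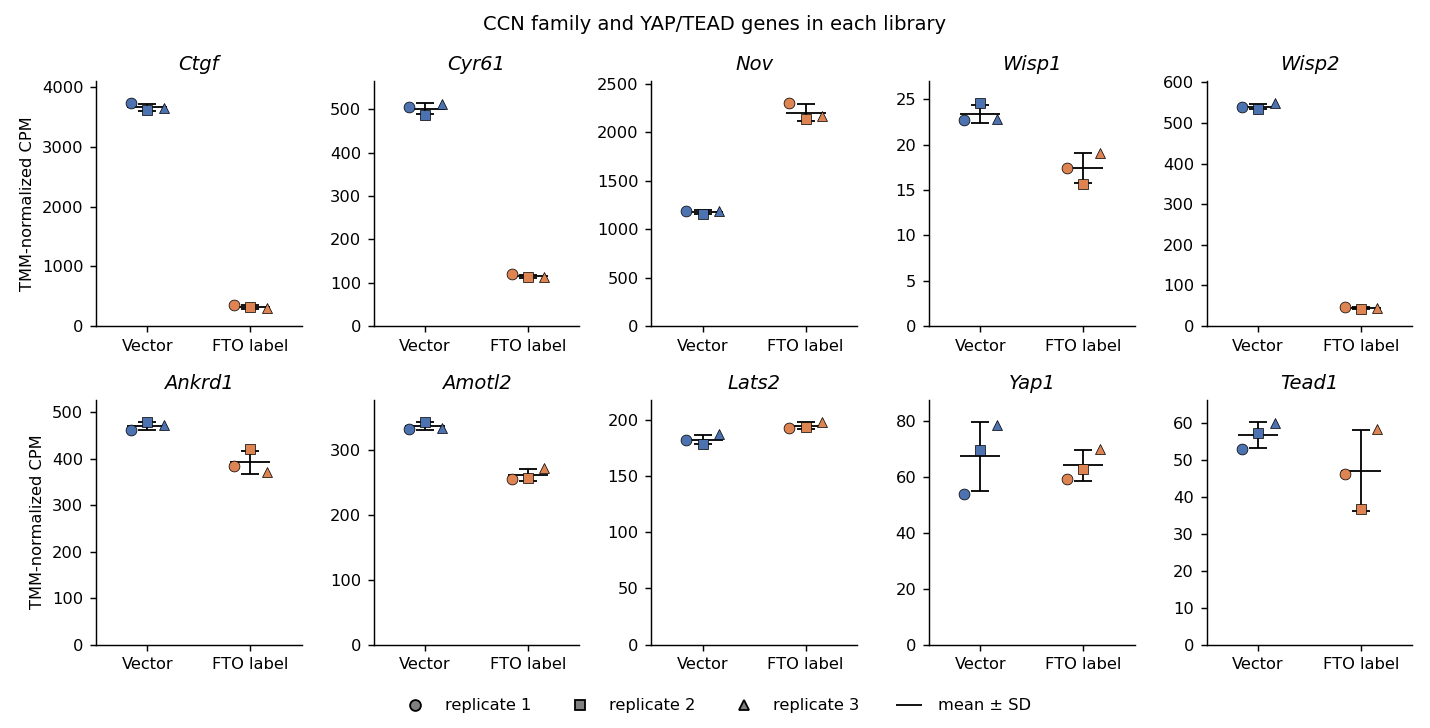
TMM-normalized CPM of the 10 genes in each of the 6 libraries, with each panel on its own linear axis from 0. Points are libraries, shaped by replicate number, and bars are the mean ± SD of 3 libraries. Ctgf, Cyr61 and Wisp2 are far lower in the libraries labelled FTO, Nov is higher, and the points of Yap1 and Tead1 overlap between the groups.

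Among the CCN ligands, Ctgf and Wisp2 showed the widest gaps of the 10 genes. Ctgf, which promotes matrix production and is a standard marker of fibrosis, was at 3729, 3613 and 3655 CPM in Vector replicates 1 to 3 and at 350.4, 312 and 295 CPM in replicates 1 to 3 labelled FTO. Every library labelled FTO was thus under the lowest Vector library by a wide margin. The mean of 319 ± 28.3 CPM was 8.71% of the Vector mean by the fitted fold change, with a log2 value of -3.52 (SE 0.0573). Among all genes tested, 103 had a lower fitted log2 fold change.

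Wisp2, which lacks the C-terminal module of the other CCN proteins, was at 538, 535 and 549 CPM in Vector and at 46.7, 42.4 and 44.8 CPM in the libraries labelled FTO. The groups were again far apart, with a log2 fold change of -3.60 (SE 0.0485), or 8.27% of the Vector level. Reads of Ctgf and Wisp2 kept nearly the same ratio, 6.78 ± 0.134 Ctgf reads for each Wisp2 read in Vector and 7.15 ± 0.498 in the libraries labelled FTO (SD, n = 3 each). Cyr61, an early-response member that acts through integrins, was at 505, 488 and 512 CPM in Vector and at 119, 113 and 114 CPM in the libraries labelled FTO. Its difference was smaller, a log2 fold change of -2.12 (SE 0.0433), so that 7.31 ± 0.146 Ctgf reads for each Cyr61 read became 2.77 ± 0.18.

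The sequences before the starts of these genes were read because Ctgf, Cyr61 and Amotl2 are known TEAD targets. The part of TEAD in their levels was not tested. Of the 10 genes, 4 had a promoter window in the RefSeq table of build GRCr8, namely Ctgf, Cyr61, Amotl2 and Yap1. Capitals mark the TEAD core motif, GGAATG or its complement on the other strand, in the 250 bases before the start, written 5′ to 3′ on the gene strand. The windows lie at chr1:22624615-22624864 (minus strand) for Ctgf, chr2:237225690-237225939 (minus strand) for Cyr61 and chr8:112182376-112182625 (plus strand) for Amotl2.
Ctgf: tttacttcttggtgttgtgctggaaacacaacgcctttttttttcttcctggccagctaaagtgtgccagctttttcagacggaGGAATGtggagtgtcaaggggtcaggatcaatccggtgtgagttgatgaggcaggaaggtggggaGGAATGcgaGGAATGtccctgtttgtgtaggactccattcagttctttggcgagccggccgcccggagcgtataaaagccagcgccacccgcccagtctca
Cyr61: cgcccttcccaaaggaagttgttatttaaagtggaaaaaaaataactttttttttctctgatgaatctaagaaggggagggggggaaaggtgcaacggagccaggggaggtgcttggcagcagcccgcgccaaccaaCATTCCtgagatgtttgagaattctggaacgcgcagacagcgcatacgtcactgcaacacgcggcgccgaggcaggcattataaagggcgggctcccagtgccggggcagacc
Amotl2: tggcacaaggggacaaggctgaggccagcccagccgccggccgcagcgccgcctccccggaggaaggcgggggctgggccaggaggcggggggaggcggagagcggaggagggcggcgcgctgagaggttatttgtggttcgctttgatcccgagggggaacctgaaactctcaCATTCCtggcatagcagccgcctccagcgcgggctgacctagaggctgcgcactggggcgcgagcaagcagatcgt

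Ctgf held 3 copies of the motif, starting 166, 101 and 92 bases before the start. Cyr61 held 1 copy at 113 bases and Amotl2 1 copy at 76 bases, both on the opposite strand, and Yap1 held 1 copy at 116 bases. The motif stood at least once in all 4 windows, against 12.1% of the 33469 windows in the table. At least 3 copies were in 27 windows of the table, 0.0807%. Of the lists described below, the motif was in 2 of 12 windows of signature genes and 2 of 8 of partners. It was in 6 of 27 windows of Hippo genes, 1 of 9 of receptors and 0 of 15 of inputs. At least 3 copies also stood in 1 of the Hippo windows. These matches are a description of the letters. Ctgf, Cyr61 and Amotl2 were taken as TEAD targets to begin with, while Yap1 was listed as an effector.

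**Figure D2:**
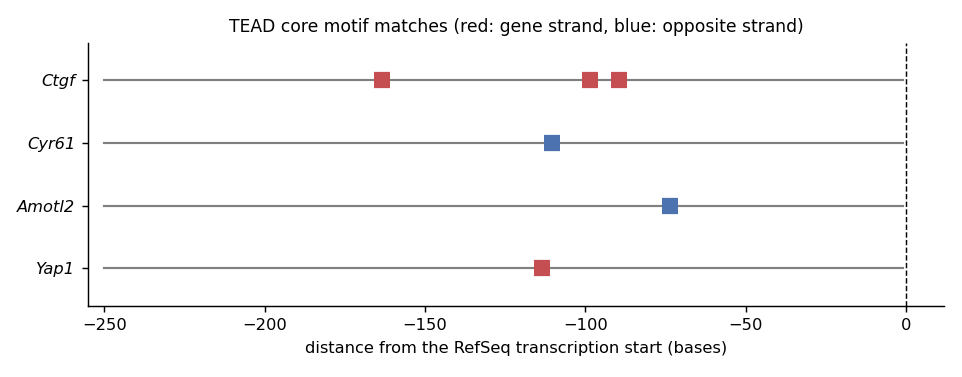
Positions of the TEAD core motif in the 250 bases before the RefSeq start of the 4 genes with a promoter window, in bases from the start at 0. Red blocks lie on the gene strand and blue blocks on the opposite strand. Ctgf has 3 matches and the other genes have 1 each.

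Nov was the one CCN gene with a higher level in the libraries labelled FTO. It encodes CCN3, which has been described as opposing CCN2 in models of fibrosis. It was at 1193, 1153 and 1183 CPM in Vector and at 2299, 2134 and 2172 CPM in the libraries labelled FTO. No library of one group reached into the other, and the log2 fold change was 0.90 (SE 0.0403), or 1.87-fold. Wisp1, a ligand first found as a Wnt-induced gene, was at 22.8, 24.6 and 22.8 CPM in Vector and at 17.5, 15.7 and 19.0 CPM in the libraries labelled FTO. The groups were close but did not overlap, with a log2 fold change of -0.42 (SE 0.0894). Wisp3, the remaining gene of the family, had at most 2 counts in any library and no fold change is given.

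As a result, the make-up of the CCN reads differed between the groups. The 5 genes together took 0.589% ± 0.00733 of the counts in Vector and 0.27% ± 0.011 in the libraries labelled FTO (SD, n = 3 each). Ctgf took 62.1% ± 0.286 of the CCN reads in Vector and 11.8% ± 0.613 in the libraries labelled FTO. The share of Nov was 19.9% ± 0.0693 and 81.6% ± 0.475. For each Nov read there were 3.12 ± 0.0231 Ctgf reads in Vector and 0.145 ± 0.00834 in the libraries labelled FTO. The share of Wisp2 was 9.15% ± 0.143 and 1.65% ± 0.0385, and that of Cyr61 8.49% ± 0.134 and 4.27% ± 0.0644. Longer transcripts give more reads, so these shares compare the groups and not the genes.

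**Figure D3:**
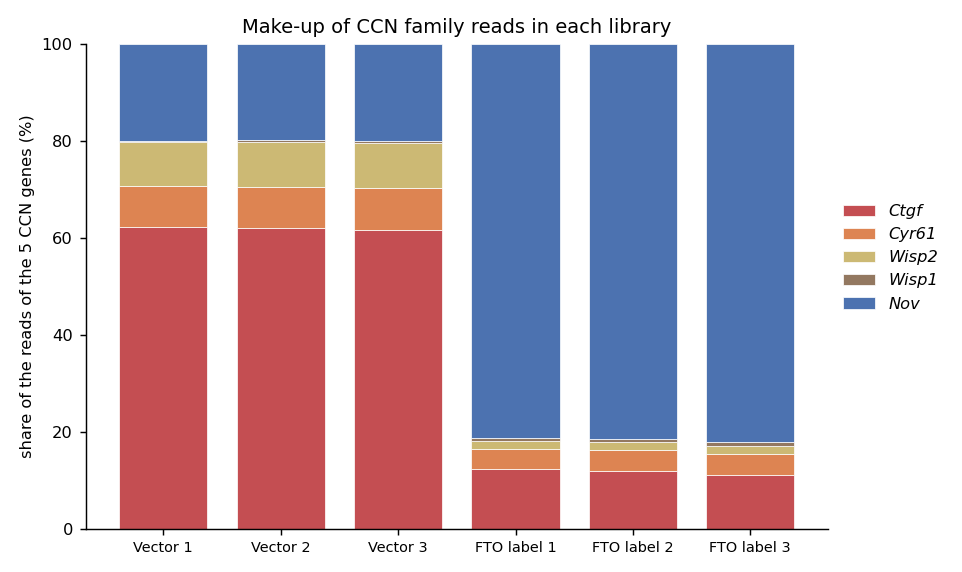
Share of each CCN gene in the summed reads of the 5 CCN genes, in percent, in each of the 6 libraries. Ctgf makes up 61.7% to 62.3% of the CCN reads in Vector, and Nov 81.2% to 82.1% in the libraries labelled FTO.

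The 3 other target genes differed far less than Ctgf and Cyr61. Ankrd1, an ankyrin repeat protein of nucleus and sarcomere that cardiomyocytes also make, was at 461, 479 and 471 CPM in Vector and at 385, 419.7 and 372 CPM in the libraries labelled FTO. Its libraries did not overlap, and the log2 fold change was -0.26 (SE 0.0466). Of the 7 cardiomyocyte markers 6 rose with an adjusted p under 0.05 in the edgeR test, against 33.2% of all genes tested. Tnnt2 fell from 770 ± 7.94 to 649 ± 22 CPM, at -0.25 on the log2 scale. Their part in the level of Ankrd1 was not tested.

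Amotl2, a junction scaffold of the angiomotin family that binds YAP and holds it back, was at 333, 344 and 333 CPM in Vector and at 255, 256 and 272 CPM in the libraries labelled FTO. Again the libraries did not overlap, with a log2 fold change of -0.37 (SE 0.0418), or 77.6% of the Vector level. Lats2, the kinase that phosphorylates YAP and is itself induced by it, was at 182, 178 and 187 CPM in Vector and at 192, 194 and 198 CPM in the libraries labelled FTO. The libraries labelled FTO lay just above, with a log2 fold change of 0.09 (95% interval 0.01 to 0.18).

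Yap1 and Tead1 themselves overlapped between the groups. Yap1 was at 54.0, 69.6 and 78.5 CPM in Vector and at 59.4, 62.9 and 70.1 CPM in the libraries labelled FTO. The spread within Vector, with a CV of 18.4%, was wider than the gap between the means, and the log2 fold change was -0.07 (95% interval -0.29 to 0.15). Its sign was not stable, from -0.21 without Vector replicate 1 to 0.05 without Vector replicate 3.

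Tead1, which binds the DNA, was at 52.9, 57.3 and 59.9 CPM in Vector and at 46.1, 36.6 and 58.4 CPM in the libraries labelled FTO. FTO replicate 3 lay within the Vector range and FTO replicate 2 well under it, so the CV was 23.3% there against 6.25% in Vector. The log2 fold change was -0.26 (SE 0.117) with all libraries, -0.46 without FTO replicate 3 and -0.11 without FTO replicate 2. Replicates 2 and 3 labelled FTO also differed most over all genes, with a chi-square of 8.38 per degree of freedom against 1.58 to 4.06 in the other within-group pairs.

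**Figure D4:**
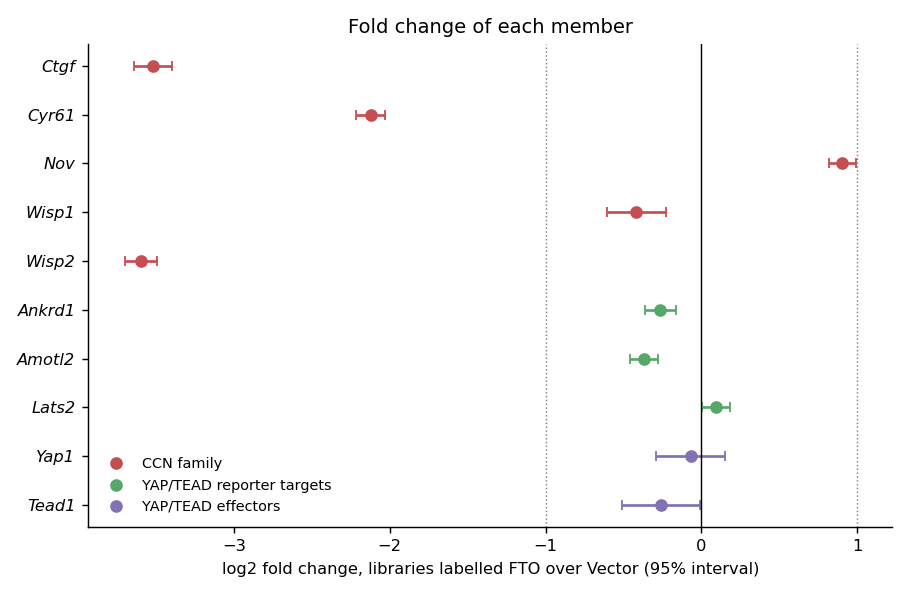
Log2 fold change of each gene, libraries labelled FTO over Vector, with its 95% interval from the edgeR fit and coloured by role. Dotted lines mark a 2-fold difference. Ctgf, Wisp2 and Cyr61 lie beyond it, Nov lies at 0.90, and the targets and effectors lie between -0.37 and 0.09.

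To see how the rest of the pathway behaved, gene lists outside the 10 were compared by the edgeR quasi-likelihood test over all 12941 genes. With an adjusted p under 0.05, 65.9% of these passed, 33.2% with a higher and 32.8% with a lower level in the libraries labelled FTO. The share that also changed at least 2-fold was 10.3% higher and 9.27% lower. The median log2 fold change of all genes was 0.00. The counts below are set beside these shares. Like the 10 genes, the lists were chosen with earlier results of these data known, so they are not an independent look at the pathway.

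The other TEAD partners were lower or near the Vector level. All 6 genes tested had fitted log2 fold changes below 0, from -0.62 to -0.08 with a median of -0.39, and 5 passed the edgeR test. Wwtr1, which encodes TAZ, fell from 49.4 ± 2.05 to 39.0 ± 2.71 CPM, or by 0.34 in log2 terms (adjusted p = 3.9e-04 in the edgeR test). Tead2, Tead3 and Tead4 fell too, at -0.57, -0.62 and -0.43 on the log2 scale, with adjusted p-values of 4.0e-04, 1.2e-06 and 1.6e-04 in the edgeR test. Vgll3, a cofactor that competes with YAP for TEAD, fell by 0.34 (log2). Vgll4, another such cofactor, had a value of -0.08 and did not pass. Vgll1 and Vgll2 were at or under 3 counts in every library.

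The other genes of a published YAP/TAZ target signature moved both ways. Of 16 genes tested 13 passed, 9 lower and 4 higher, with a median log2 fold change of -0.49. At least 2-fold changes were 3 lower and 2 higher. Tgfb2, a TGF-β ligand, fell from 252 ± 1.0 to 68.4 ± 2.75 CPM, at -1.88 on the log2 scale (SE 0.0457, adjusted p = 1.3e-14 in the edgeR test). Ccdc80, a secreted matrix protein, fell from 5706 ± 64.2 to 1653 ± 221 CPM, at -1.79 on the log2 scale. Ptpn14, a phosphatase that binds YAP and restrains it, fell to 46.1% of the Vector level. It is near the limit, with a log2 fold change of up to -0.99 when 1 library was left out. Without FTO replicate 2 the count of 3 genes became 2.

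In the opposite direction, Igfbp3, which binds insulin-like growth factors in the circulation and in tissue, was at 75.8, 79.2 and 87.0 CPM in Vector and at 4614, 4188 and 3997 CPM in the libraries labelled FTO. It rose 52.9-fold, or 5.72 in log2 terms (SE 0.0685, adjusted p = 4.1e-18 in the edgeR test), the largest increase in any of the 5 lists. Nt5e, the surface enzyme that makes adenosine, rose from 62.6 ± 1.06 to 125 ± 3.53 CPM. Its fold change of 2.0 sits on the limit, and the count of 2 genes became 1 with DESeq2, with DESeq2 size factors, with no filter on low counts, and without Vector replicate 2, Vector replicate 3 or FTO replicate 2. Asap1, F3 and Arhgef17 did not pass, with log2 fold changes of 0.09, 0.09 and -0.02.

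Of the Hippo kinases, scaffolds and regulators, 24 genes were tested and 20 passed, 15 lower and 5 higher, with a median log2 fold change of -0.29. The values ran from -1.60 to 0.73, and 4 genes fell at least 2-fold. Fat4, an atypical cadherin upstream of the pathway, fell from 44.1 ± 3.44 to 14.3 ± 3.08 CPM, or -1.60 on the log2 scale (adjusted p = 7.3e-09 in the edgeR test). Amot, the founding angiomotin, Ajuba, a LIM protein that binds LATS, and Wwc1, the scaffold KIBRA, each fell by 1.27 on the log2 scale. Wwc1 was low, at 4.23 ± 0.132 CPM in Vector. The core kinases Stk4, Lats1 and Stk3 fell as well, at -0.65, -0.43 and -0.24 on the log2 scale, and Nf2, which recruits LATS to the membrane, rose by 0.58. The other genes that passed with a higher level were Dchs1, Map4k4, Amotl1 and Sav1, at 0.73, 0.55, 0.34 and 0.28 on the log2 scale. The call of Amotl1 was lost when Vector replicate 1, Vector replicate 3 or FTO replicate 3 was left out. The genes from Stk4 on were named after their values were seen.

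Of the CCN receptors, 12 genes were tested and 11 passed, 9 lower and 2 higher, with a median log2 fold change of -0.99, and 6 fell and 1 rose at least 2-fold. Sdc4, a heparan sulphate proteoglycan of focal adhesions, was at 144, 144 and 143 CPM in Vector and at 1326, 1324 and 1272 CPM in the libraries labelled FTO. The groups were far apart, and the rise was 9.11-fold, or 3.19 in log2 terms (SE 0.0415, adjusted p = 9.5e-18 in the edgeR test).

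The integrin subunits were mostly lower. The exception was Itga5, which rose from 193 ± 4.75 to 244 ± 5.4 CPM, or 0.34 in log2 terms (adjusted p = 3.4e-06 in the edgeR test). Itga6, a laminin receptor subunit, fell from 77.7 ± 4.03 to 10.7 ± 2.05 CPM, or -2.88 on the log2 scale (adjusted p = 8.7e-13 in the edgeR test). Itgb3, Itgb5 and Itgb1 also fell, at -1.96, -1.44 and -1.38 on the log2 scale. Itgb1 encodes the shared β1 subunit. Itgb2, the leukocyte β subunit, fell by 1.36, beside macrophage markers of which 6 were lower and 1 was higher, and their part in it was not tested. Notch1, which CCN3 can bind, fell from 27.9 ± 1.69 to 7.86 ± 0.395 CPM. Lrp1, an endocytic receptor of CTGF, did not pass, with a value of 0.00 (SE 0.0832) that became -0.14 without FTO replicate 3 (adjusted p = 0.0116 in the edgeR test).

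Inputs to Ctgf, Cyr61 and YAP all passed, 11 of 15 lower and 4 higher, with a median log2 fold change of -0.39. At least 2-fold changes were 4 lower and 3 higher. The count of 4 became 5 with DESeq2, with DESeq2 size factors and with no filter on low counts. It was also 5 without Vector replicate 1 or 3 and without FTO replicate 1 or 3. Tgfbr1, at -0.999 on the log2 scale, sits on the limit. Tgfbr2, the other TGF-β receptor listed, went the other way. It rose from 157 ± 3.3 to 281 ± 34 CPM, or 0.84 in log2 terms (adjusted p = 2.9e-08 in the edgeR test). Of the ligands, Tgfb3 fell from 922 ± 10.8 to 35.6 ± 0.941 CPM, at -4.69 on the log2 scale (adjusted p = 9.4e-19 in the edgeR test). Edn1, the precursor of the vasoconstrictor endothelin-1 and itself a YAP-responsive gene in some cells, fell from 64.4 ± 1.5 to 10.4 ± 1.35 CPM. Of the receptors, F2r, the thrombin receptor PAR1, fell by 1.74.

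Other receptors rose. Ednra, the endothelin A receptor, rose from 8.09 ± 0.533 to 25.5 ± 3.79 CPM, or 3.17-fold (adjusted p = 7.6e-09 in the edgeR test). Agtr1a, an angiotensin II receptor, and S1pr2, a sphingosine-1-phosphate receptor, each rose by 1.01. Both are near the 2-fold limit, and without Vector replicate 2 only 1 gene of this list was at least 2-fold higher. Rock2, a kinase that promotes actomyosin contraction, fell from 725 ± 17.6 to 326 ± 27.2 CPM.

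**Figure D5:**
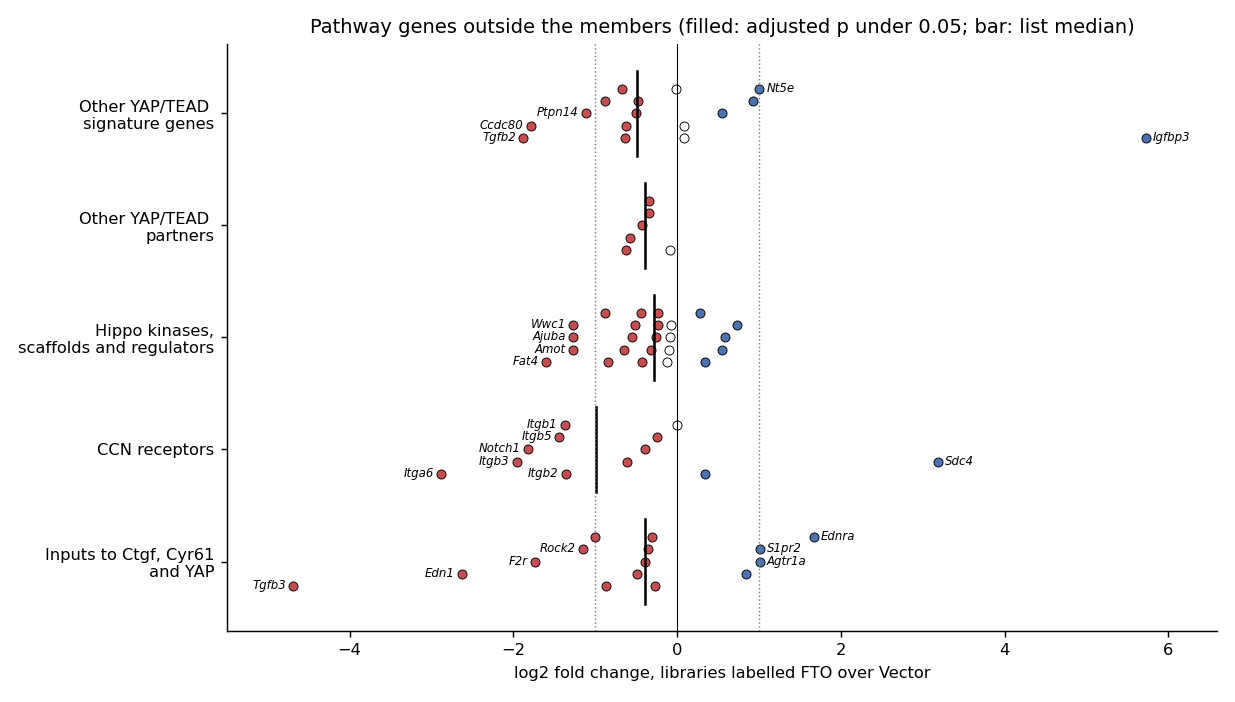
Log2 fold change of each tested gene in the 5 pathway lists, libraries labelled FTO over Vector. Each point is a gene, filled where its adjusted p was under 0.05 in the edgeR test and named where it also changed at least 2-fold, and the black bar is the list median. The medians lie between -0.99 and -0.29, and Igfbp3 at 5.72 and Sdc4 at 3.19 stand far to the right.

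The genes with profiles most like those of Ctgf and Cyr61 were then looked up among 10041 other genes with a mean of at least 100 counts. Likeness was the root mean square difference of log2 CPM, each gene centred on its mean over the 6 libraries, so it is set mainly by the gap between the groups. For Ctgf the nearest were Acta2, the actin of smooth muscle and myofibroblasts, at 0.0622, Aoc3 at 0.0669 and Vldlr at 0.0693. Acta2 shares sequence with other actins, and how such reads were counted is not given in the sources used here. For Cyr61 the nearest were Ephb3 at 0.0322, Mrc1, a receptor known from macrophages, at 0.0503 and Itgbl1 at 0.0615.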

How the data were processed

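Raw read counts per gene symbol, with no normalization by the authors, were deposited in 1 file for each of the 6 libraries. Trimmomatic and genome build rn6 are named in the submitters' processing notes. The aligner, counting program, annotation and strandedness of counting are not given in the sources used here, so counts of overlapping genes or near-identical copies are uncertain. Groups came from the genotype labels.

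Of 21857 symbols, 4691 had no count in any library. Genes were filtered with filterByExpr of edgeR 4.0.16 (minimum count 10), which kept 12941, scaled by TMM, and compared by glmQLFit and glmQLFTest in R 4.3.3, two-sided, with Benjamini-Hochberg adjustment over all genes. The SE was derived from the F statistic. A floor of 3 counts equalled 0.168 to 0.227 CPM. The 2-fold limit follows the threshold of the study. Intervals are at 95%, and like the floor they hold no more than counting error and the spread of replicates.

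The 10 genes and all lists were chosen with earlier results of these data known. Genes named from the lists had an adjusted p under 0.05, at least a 2-fold change and no overlap in CPM, besides Wisp3, Fto, Wwtr1, Tead2, Tead3, Tead4, and the 3 genes nearest to Ctgf and to Cyr61. Other names were added after their values were seen. From the lists, 3 genes were not analysed here, 1 each of the signature, the receptors and the inputs, and a further listed gene is not reported here. Alternatives were DESeq2 1.42.0, limma-voom (limma 3.58.1), other scalings and filters, a replicate block and leaving out each library. Promoter windows were read from RefSeq (GRCr8) and matched by symbol or synonym, and coordinates were not converted to rn6.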

Additional observations from a re-analysis of the deposited data

How the results depend on the processing

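The 10 genes were followed through 13 alternatives, and in all 130 values the log2 fold change moved by less than 1 SD between replicates, although Yap1 changed sign as given above. The number of them at least 2-fold apart was 3 in each. Genes called over all genes tested ran from 7795 with DESeq2 to 9009 with no filter on low counts, against 8531, and from 7902 to 8719 when 1 library was left out. Signature genes at least 2-fold higher were 1 in place of 2 with DESeq2, with DESeq2 size factors and with no filter on low counts, and 1 to 2 when 1 library was left out, where Nt5e crossed the limit. Signature genes at least 2-fold lower were 2 to 3 when 1 library was left out. Inputs at least 2-fold higher were 1 to 3 when 1 library was left out. Inputs at least 2-fold lower were 4 to 5, both then and in the other alternatives. Of 73 list genes followed, 8 changed in at least 1 alternative, with 8 calls lost and 4 gained. One gained was that of Lrp1, whose value of 0.00 with all libraries was -0.14 when FTO replicate 3 was left out and 0.11 when FTO replicate 2 was. The cause was not tested. Leaving out of each marker sum the gene whose level differed most, chosen after seeing the data, turned the log2 ratio of the fibroblast sum from 1.14 to -0.31 and left the direction of the other 5.

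Deviations of same-numbered libraries correlated at 0.0053, -0.11 and 0.063, and Vector replicate 1 correlated best with FTO replicate 2. These values show no shared effect of the replicate number, but they cannot show whether same-numbered cultures were paired. A replicate block in the fit left 8399 genes passing, 2540 of them at least 2-fold, and the list calls were 13, 5, 20, 11 and 15 for signature genes, partners, Hippo genes, receptors and inputs. Wisp3, Vgll1 and Vgll2 were at or under 3 counts in every library, and the part of depth in this was not tested.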
